A study of Mus musculus with 4 samples.

Results

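The genes examined here were the 4 that encode eIF5A and the enzymes that activate it: Eif5a, Eif5a2, Dhps and Dohh. They were chosen by name, with no threshold on their values. The platform annotation pairs them with 5 probe sets, a probe set being the group of array probes that is summarized into 1 value, out of 23099 probe sets paired with any gene. They are 4 of 18820 genes with a value of their own. Expression was measured in whole testes of adult mice on 4 Affymetrix Mouse Gene 1.1 ST arrays, 2 from Azin2 KO and 2 from Azin2 WT mice, each carrying a pool of RNA from 3 animals. KO mice, of a C57BL/6 mixed background, carried a β-Geo cassette in the Azin2 locus and still made a fusion of the N-terminal end of AZIN2 with β-galactosidase. WT mice had an intact locus, and no treatment was given to either group. Whether the mice of both genotypes were littermates is not given in the sources used here.

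eIF5A is a small translation factor that helps the ribosome to form peptide bonds that are slow to form, such as those between consecutive prolines, and that also assists termination. It works only after a lysine of the protein has been turned into hypusine, an amino acid made from the polyamine spermidine. Deoxyhypusine synthase (encoded by Dhps) moves the aminobutyl part of spermidine to that lysine, and deoxyhypusine hydroxylase (Dohh), an iron enzyme, then adds a hydroxyl group. Eif5a is expressed in most tissues, whereas the closely related Eif5a2 has a more restricted expression that includes testis and brain. AZIN2, which KO mice lack in its full-length form, binds antizymes and so relieves ornithine decarboxylase, which makes the putrescine from which spermidine is formed. The comparison therefore asks whether mRNAs that act downstream of spermidine differ in testes without AZIN2. By HPLC of whole testes, the paper reported less putrescine in KO mice, but no change of spermidine, the donor for hypusine, or of spermine.

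The deposited values are normalized log2 signals, on which a difference of 1 is a doubling, and array medians were nearly equal, from 6.08 to 6.11. Over the named probe sets, the standard deviation of the difference was 0.157 between the KO pools and 0.138 between the WT pools. It was 0.132 to 0.149 between pools of unlike genotype, so that pools of one genotype were not the more alike. Azin2, the targeted gene, had log2 signals of 7.358 and 7.135 in the KO pools and of 10.160 and 9.998 in the WT pools, so that both KO pools were far below both WT pools. Its KO minus WT difference was -2.83 (standard error 0.10, adjusted p = 0.0250 from limma). This call was lost with a spread estimated for each probe set alone (adjusted p = 0.868), when probe sets without a gene were tested too (0.0707), and without WT replicate 1 (0.294) or 2 (0.232). It was the one named probe set (0.00433% of 23099) past an adjusted p of 0.05 in limma, and 4.1% had an unadjusted p under 0.05. The spermatid markers, which belong to testis, had a mean log2 signal of 11.76 in both KO pools and between 11.76 and 11.77 in the WT pools. Of the 3 epididymis markers measured, Lcn5 and Lcn8 were below the array medians and Rnase10, with signals from 6.564 to 6.704, above them, but signals of different probe sets do not measure which mRNA is more abundant. In bulk tissue such as this, fewer cells of a type and less RNA per cell cannot be told apart.

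No difference between KO and WT testes passed the test for any of the 4 genes, which does not show that their levels were equal. The intervals given below bound the differences only under the limma fit used, and other fits gave wider ones for some genes. By limma, 0 of 4 passed an adjusted p of 0.05 and 0 of 4 an unadjusted p of 0.05, against 4.1% of all named probe sets for the second. The ordinary equal-variance test also gave 0 of 4 for both, but it called 0% of all named probe sets after adjustment, Azin2 included, and 5% at an unadjusted p of 0.05. The KO minus WT differences ran from -0.10 for Dhps to 0.11 for Dohh on the log2 scale, with Eif5a at 0.039 and Eif5a2 at 0.029 between them. Over all named probe sets the median difference was 0.011, and 95% of them lay between -0.19 and 0.17, so that all 4 genes fell within the bulk of the array. With 2 pools a group, an exact permutation test of one gene cannot give a two-sided p below 0.333, and the limma values below rest on a spread shared between probe sets.

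A sequence feature that the choice of the genes did not use is shown first. The E-box CACGTG, the core site of basic helix-loop-helix factors such as MYC and USF, reads the same on both strands. It was searched for in windows from 250 bases before to 50 after each transcript start (RefSeq, GRCm38.p6), and it was present in at least 1 window of Eif5a, Eif5a2 and Dohh, but in none of Dhps. Of all 32851 such windows, 7.15% hold it, and of 27025 genes 8.09% hold it in any window. Eif5a has 6 windows, of which 3 hold the motif at 2 distinct positions, within the printed stretches chr11:69921428-69921487 and chr11:69920776-69920835 (minus strand). These are called upstream and downstream relative to each other. The former lies at -74 and -185 from the transcript starts of 2 windows, the latter at -178 from that of another. Both lie inside the annotated span of Eif5a, chr11:69916712-69921958. Eif5a2 holds it at 2 positions of its 1 window, at -142 and -117 from the transcript start of that window (printed stretch chr3:28781108-28781192, plus strand). Both positions lie inside the annotated span of the gene, which begins at chr3:28781032, a start for which no window was searched. In Dohh the motif begins at base 3 of the transcript (printed stretch chr10:81384409-81384468, plus strand). In the context lists described further on, 6 of 26 genes with a window hold it, among them Sms and Eef2. A match of letters is a description and no evidence of binding. The runs below are printed 5′ to 3′ on the strand of the gene, with the E-box in capitals.
Eif5a, upstream position: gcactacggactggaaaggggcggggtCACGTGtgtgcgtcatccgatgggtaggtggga
Eif5a, downstream position: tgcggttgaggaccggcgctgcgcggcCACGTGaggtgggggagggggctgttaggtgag
Eif5a2: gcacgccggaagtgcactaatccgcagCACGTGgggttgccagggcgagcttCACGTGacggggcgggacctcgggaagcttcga
Dohh: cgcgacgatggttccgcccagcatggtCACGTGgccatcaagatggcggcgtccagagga

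The substrate genes come first. Eif5a, the general isoform, had log2 signals of 10.997 and 11.019 in the KO pools and of 10.991 and 10.947 in the WT pools by its brighter probe set, which was taken as the gene's value. Both KO pools lay above both WT pools, but by a gap of only 0.0059. The means were 11.01 ± 0.015 (SD, n = 2 pools) in KO and 10.97 ± 0.031 (SD, n = 2) in WT testes, a log2 difference of 0.039 (standard error 0.050, adjusted p = 0.9995 from limma). On the linear scale this was a signal 2.74% higher in KO, with a 95% interval from -5.99% to 12.3%.

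The dimmer Eif5a probe set gave 10.253 and 10.269 in the KO pools and 10.247 and 10.241 in the WT pools. All 4 pools were thus close together, with both KO pools above both WT pools by a gap of 0.0055. Its log2 difference was 0.017 (95% interval -0.11 to 0.14 from limma), in the same direction as the brighter set. The annotation pairs both sets with Eif5a, but they may not read the same RNA. The named probe sets on either side of the dimmer one in the array's numbering belong to chromosome 11, as Eif5a does, whereas those beside the brighter one (Npffr2 and Alb) belong to chromosome 5, where GRCm38.p6 holds a pseudogene of this family, Eif5al3-ps, between the same genes. The files give no probe positions, and whether either set reads RNA of the pseudogene was not tested.

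Eif5a2, the isoform with restricted expression, had the largest spread of the 4 genes between the KO pools. Its log2 signals were 8.811 and 8.675 in the KO pools, and these enclosed the values of 8.729 and 8.699 of the WT pools. The means were 8.74 ± 0.096 (SD, n = 2 pools) in KO and 8.71 ± 0.022 (SD, n = 2) in WT testes, so that the difference of 0.029 was below the gap between the KO pools. The standard error was 0.065 (adjusted p = 0.9995 from limma), and the 95% interval of the linear change ran from -9.13% to 14.5%. Without KO replicate 1 the difference was -0.039, of the opposite sign.

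**Figure D1:**
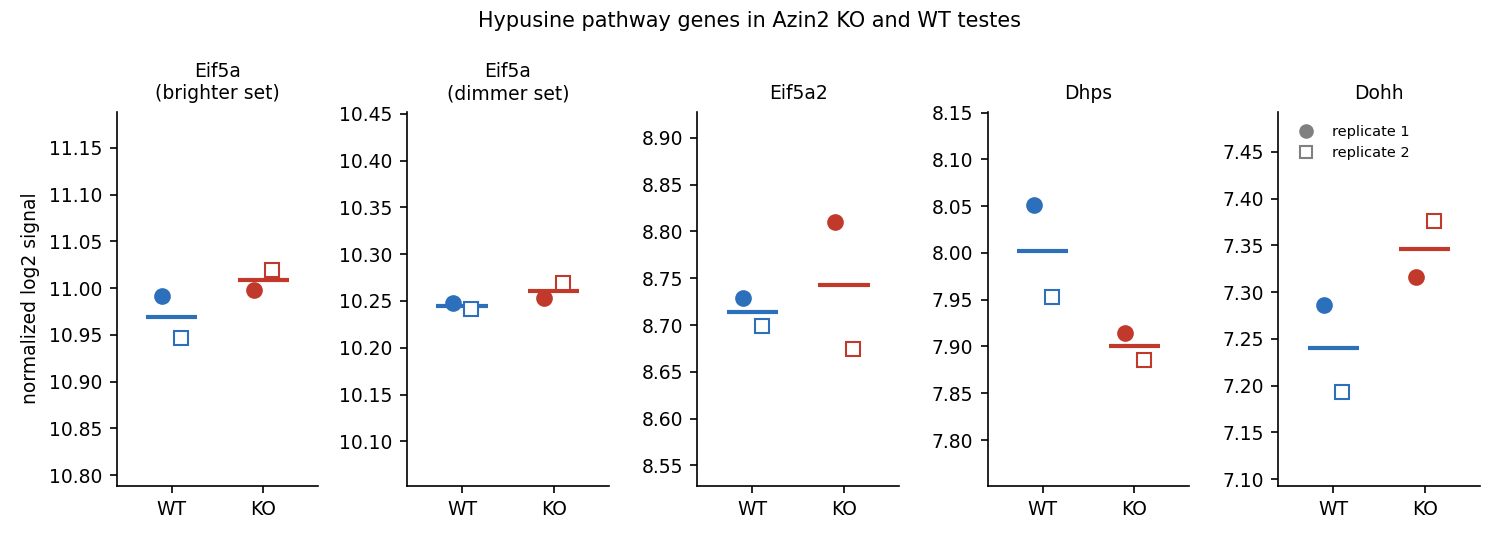
Normalized log2 signal (vertical axis, spanning 0.4 in every panel) of the 5 probe sets in each WT (blue) and KO (red) pool, with replicate 1 as filled circles, replicate 2 as open squares and the mean of 2 pools as a bar. The KO and WT values are nearly equal for both Eif5a sets and overlap for Eif5a2, while Dhps was below and Dohh above the WT pools by gaps of 0.038 and 0.029.

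With all 4 arrays, the differences of the modifying enzymes were wider than those of the substrate genes, and in opposite directions. This order did not hold without KO replicate 2, where Eif5a2 (0.097) was beyond Dohh (0.076) and Dhps (-0.088), or without WT replicate 1, where Eif5a (0.061) was beyond Dhps (-0.053). The enzymes also had the dimmer probe sets. Dohh and Dhps were brighter than 52.3% and 60.1% of the named probe sets, Eif5a2 and Eif5a than 69.7% and 94.5%. The part of brightness in the order was not tested. Dhps, whose product starts hypusine synthesis, had log2 signals of 7.915 and 7.886 in the KO pools and of 8.052 and 7.953 in the WT pools. Both KO pools were below both WT pools, and the WT pools were farther apart than the KO pools. The means were 7.90 ± 0.020 (SD, n = 2 pools) in KO and 8.002 ± 0.070 (SD, n = 2) in WT testes, a difference of -0.10 (standard error 0.057, adjusted p = 0.9995 from limma). The 95% interval of the linear change ran from -15.9% to 3.20%, and 18.0% of the named probe sets had a larger absolute difference.

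Dohh, whose product completes hypusine, had log2 signals of 7.316 and 7.377 in the KO pools and of 7.287 and 7.193 in the WT pools. Here both KO pools were above both WT pools, although the WT pools were farther apart than WT replicate 1 was from KO replicate 1. The means were 7.35 ± 0.043 (SD, n = 2 pools) in KO and 7.24 ± 0.066 (SD, n = 2) in WT testes, a difference of 0.11 (standard error 0.059, adjusted p = 0.9995 from limma). The 95% interval of the linear change ran from -3.10% to 19.6%, and 16.5% of the named probe sets had a larger absolute difference.

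In all, KO and WT pools did not overlap for 3 of the 4 genes, with 2 higher in KO and 1 lower. Among all named probe sets, both KO pools were above both WT pools in 20.1% and below them in 12.3%, so that pools that do not overlap were common on these arrays. Within each array, the log2 signal of Dhps minus that of Dohh was 0.60 and 0.51 in the KO pools and 0.76 and 0.76 in the WT pools. The distance between the enzymes thus narrowed by 0.21 from WT to KO. This contrast was formed after the values were seen and was not tested, and it compares changes, since signals of different probe sets do not rank the mRNAs by abundance.

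**Figure D2:**
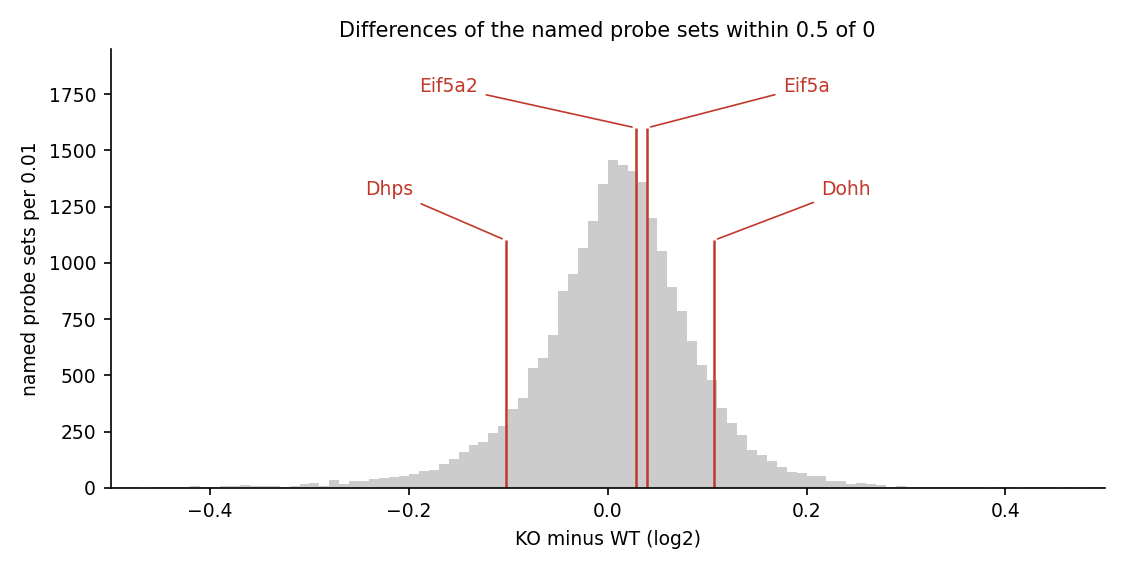
Histogram of the KO minus WT log2 differences (horizontal axis) of the named probe sets in steps of 0.01, with the 4 genes as red lines; 57 probe sets beyond 0.5 in either direction, Azin2 included, are not drawn. Eif5a and Eif5a2 stand near the peak, and Dhps at -0.10 and Dohh at 0.11 stand on its shoulders.

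Some features of the loci bear on what the probe sets may read. In GRCm38.p6 the annotated span of Eif5a shares 345 bases with that of Gps2, and Dhps shares 128 with Wdr83, both protein-coding genes. Dohh lies within the span of the long noncoding RNA gene Gm48551 and itself holds the miRNA gene Mir6913. Eif5a2 shares 8208 bases with the noncoding gene Gm32950 and 91 with 1700112D23Rik. Whether probes lie in the shared bases was not tested.

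The genes whose products handle eIF5A protein were described next. They were Xpo4, an exportin that carries eIF5A out of the nucleus, Kat2b, an acetyltransferase, and the deacetylases Hdac6 and Sirt2, all of which act on eIF5A. All 4 were measured, all 4 were below 0, and 0 passed an adjusted or an unadjusted p of 0.05 from limma. Kat2b, at -0.040, and Hdac6, at -0.039, were the lowest, and Sirt2 (-0.034) and Xpo4 (-0.011) the highest. Their median was -0.037, against 0.011 for all named probe sets, of which 56.9% were above 0. It was -0.012 without WT replicate 1 and -0.019 without KO replicate 1.

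Spermidine, the donor for hypusine, is formed from putrescine by spermidine synthase, and antizymes act before this step, on ornithine decarboxylase. Of 12 genes of polyamine synthesis, breakdown and antizyme control, 9 had a value of their own (Amd1, Paox and Oaz1 did not), and Azin2 was the only one past an adjusted p of 0.05 from limma. The next lowest was Azin1, the other antizyme inhibitor, at -0.064. The highest were Sms, the spermine synthase gene that uses spermidine, at 0.19 (95% interval -0.05 to 0.43), and Smox, a spermine oxidase gene, at 0.13 (95% interval -0.18 to 0.44). The median of the 9 was 0.055, but it was -0.0087 without KO replicate 1, -0.0059 without WT replicate 2, 0.0051 without KO replicate 2 and -0.013 among the brighter probe sets alone. Srm, the spermidine synthase gene and thus the closest to the donor, was at 0.055 (95% interval -0.23 to 0.34), a wide interval compared with those of the 4 genes, and Odc1 at -0.013. Both were named for their roles, outside the rule for named genes. Whether the Odc1 probe set reads other RNA was not tested.

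eIF5A acts on the ribosome beside the elongation factors eEF1 and eEF2 and the release factors. Of 11 elongation and termination genes, all 11 had a value, 3 were above 0 and 8 below, and 0 passed an adjusted or an unadjusted p of 0.05 from limma. They ranged from -0.090 for Eef2k, the kinase that inhibits eEF2, to 0.043 for Eef1b2, an exchange factor of eEF1A, with a median of -0.024. Thus Dhps lay just below and Dohh above the range of these genes.

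The protein eEF2 also carries a modified residue of its own, diphthamide, made by a dedicated set of enzymes. Of 7 diphthamide genes, 5 had a value, with a median of 0.024, and 0 passed an adjusted or an unadjusted p of 0.05 from limma. Dph3 (0.080) and Dph2 (0.078) were the highest, and Dnajc24 (-0.022) and Dph5 (-0.011) the lowest. Tfeb and Atg3, autophagy genes whose translation has been reported to need hypusinated eIF5A, had mRNA differences of -0.0062 and -0.038. The arrays measure mRNA, and give neither hypusine, eIF5A protein nor translation.

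**Figure D3:**
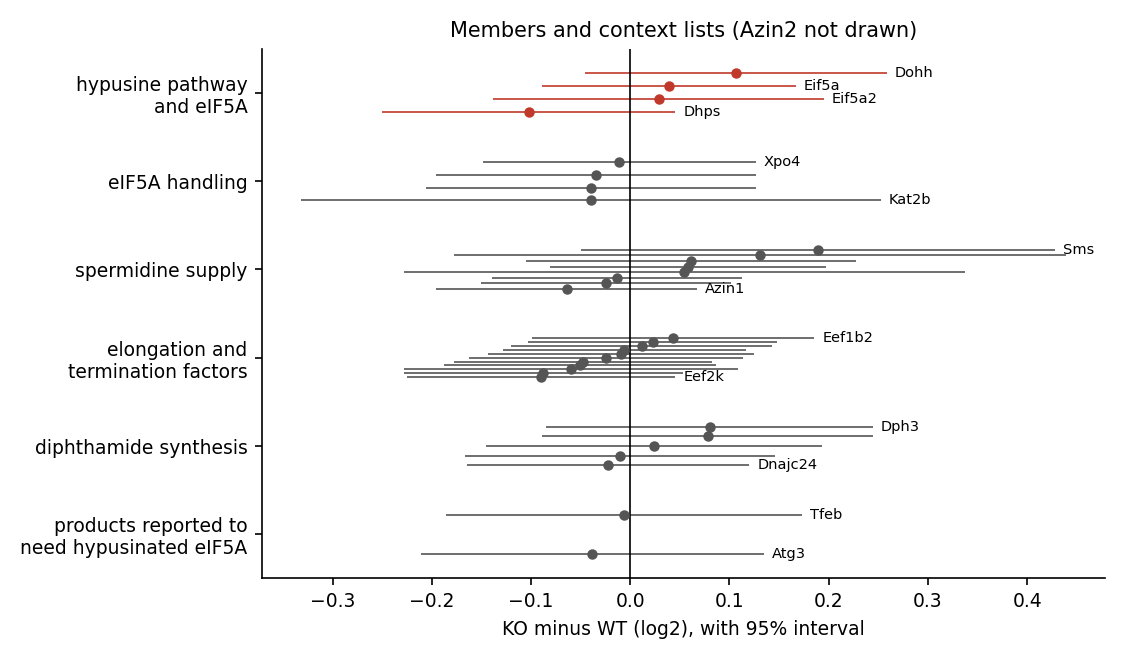
KO minus WT log2 difference (horizontal axis) with its 95% interval from limma for each measured gene of 6 groups, the 4 genes of hypusine synthesis and eIF5A in red; the lowest and highest of each group are labelled. Azin2 (-2.83) is not drawn, and the interval of every gene drawn includes 0.

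Markers of testis cell types were set beside these values. Of 49 measured markers in 10 lists, 0 passed an adjusted or an unadjusted p of 0.05 from limma, and the list medians ran from -0.19 for macrophages to 0.10 for Sertoli cells. Both moved when an array was left out. The macrophage median turned to 0.018 when WT replicate 2 was left out and to -0.024 when KO replicate 1 was, and the Sertoli median was 0.010 without WT replicate 2 and 0.021 without KO replicate 2. All 7 Sertoli markers were above 0, from 0.018 for Dhh to 0.21 for Amh, as were 3 of the 4 hypusine pathway genes and 56.9% of all named probe sets. Relative to their mean over the 4 arrays, the Sertoli markers stood on average at -0.011 and 0.11 in the KO pools and at 0.024 and -0.12 in the WT pools. KO replicate 2 was thus the highest and WT replicate 2 the lowest, as for Dohh and both Eif5a probe sets. All Sertoli markers were lowest in WT replicate 2, but Wt1 and Rhox5 were highest in KO replicate 1 and Dhh in WT replicate 1. How many of all probe sets have these extremes was not counted. The average of the 4 peritubular myoid markers was also highest in KO replicate 2, at 0.074, and lowest in WT replicate 2, at -0.10. The mean log2 signal of the Sertoli markers was between 7.91 and 8.03 in KO and between 7.80 and 7.95 in WT pools. Their part in the differences of Dohh and Eif5a was not tested.

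Spermatid markers, by contrast, hardly moved, with a median of -0.0019 and a range from -0.053 for the protamine gene Prm1 to 0.016 for the acrosomal gene Acrv1. Spermatocyte markers had a median of 0.036, from -0.041 for the cohesin gene Rec8 to 0.084 for Sycp3 of the synaptonemal complex. Spermatogonia markers had a median of 0.016, with Kit lowest at -0.16 and Uchl1 highest at 0.15. All 5 Leydig markers were below 0, from -0.14 for Hsd3b1 to -0.025 for Cyp17a1, both enzymes of steroid synthesis. Their median of -0.084 was 0.092 without KO replicate 1, the lowest array for these markers, and 0.013 without WT replicate 1. Macrophage markers ranged from -0.25 for Cd68 to 0.068 for Cx3cr1, and endothelial markers from -0.087 for Pecam1 to -0.016 for Kdr. Myoid markers ranged from 0.017 for Tagln to 0.15 for Cnn1, epididymis markers from -0.11 for Rnase10 to 0.030 for Lcn5, and the 1 red blood marker measured, Alas2, was at 0.10.

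The pattern of each gene over the 4 arrays was compared with that of every other gene, by the root mean square difference of log2 values centred on the gene's own mean. Nearest to Eif5a were Pcdh20 (0.0014) and Ugt2b1 (0.0021), and 7730 of 18819 genes lay within 0.05 of it. Nearest to Eif5a2 were Ppp1r1b (0.0027) and Dctn5 (0.0043), with 3915 genes within 0.05. Dhps was matched most closely by Olfr867 (0.0033) and by Pkm, a pyruvate kinase gene (0.0062), with 1582 genes within 0.05. Dohh was matched most closely by Slc13a2 (0.0026) and Serpinb1b (0.0040), with 2904 genes within 0.05. With 4 arrays such patterns are shared by many genes. Only the 2 nearest were kept, so the absence of the other pathway genes from them was likely in advance and says nothing about the pathway. Dctn5 and Pkm had signals above the array medians. Those of Pcdh20, Ugt2b1, Ppp1r1b, Olfr867, Slc13a2 and Serpinb1b were below them.

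**Figure D4:**
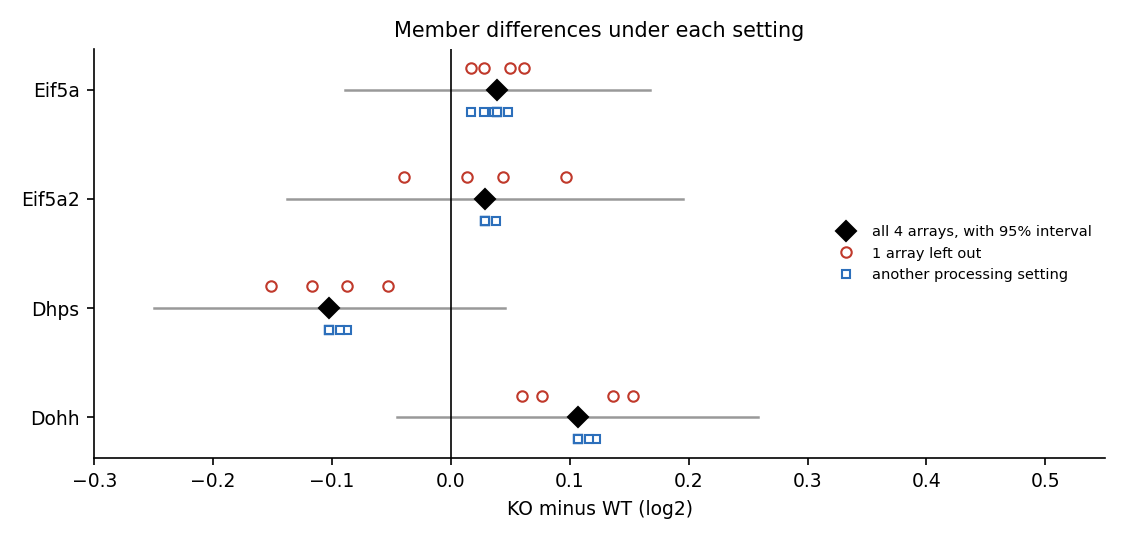
KO minus WT log2 difference (horizontal axis) of the 4 genes with all arrays (black diamonds, grey lines for the 95% interval from limma), with 1 array left out (red circles) and under other processing settings (blue squares). Without KO replicate 1 the value of Eif5a2 is -0.039, while Eif5a and Dohh stay above 0 and Dhps below 0 at every setting drawn.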

How the data were processed

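The authors deposited log2 signals per probe set, made with RMA (background correction, normalization between arrays and summarization of probes); the submitters' processing notes name Partek 6.13.1224. The labels name a 3′ IVT cRNA kit, and the paper describes amplified cDNA. Genome build, annotation version and summarization level are not given in the sources used here. Of 35556 probe sets, 23099 are paired with a gene in the platform annotation (21218 with 1 symbol), and symbols were updated by gene identifier (GRCm38.p6). The highest-mean probe set stood for a gene. Differences (KO minus WT) were fitted over all 23099 probe sets with lmFit and eBayes of limma 3.58.1 (R 4.3.3; no filter, 2.96 prior degrees of freedom), with Benjamini-Hochberg adjustment and 95% intervals. The number of arrays limits the precision. As pools of one genotype are not said to come from separate litters, p-values measure the spread between these pools. The genes were chosen by name and function, not by a threshold on their values, but they, the lists, the tests and the alternatives were chosen with earlier results of these data known. Named are the 4 genes, Azin2, the 2 lowest and 2 highest of the eIF5A handling, spermidine and diphthamide lists, the lowest and highest of the others, and the 2 nearest patterns. Alternatives were other normalizations (quantile, median centring), an intensity trend in eBayes and the ordinary equal-variance (Student) test. The paper names a Student test for its statistics in GraphPad Prism, and does not say which test gave its array p-values. Further alternatives were leaving out dim probe sets, testing unnamed ones too, the mean of a gene's probe sets, a replicate block and leaving out each array. The fit was tested on simulated data. Python 3.11.15 and matplotlib 3.10.9 made the figures.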

Additional observations from a re-analysis of the deposited data

How the results depend on the processing

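The differences of Eif5a (14 alternatives), Dhps and Dohh (12 each) kept their sign and none passed an adjusted p of 0.05; the lowest unadjusted p was 0.0866, for Dhps without WT replicate 2. With 1 array left out, the log2 difference ranged from 0.017 to 0.061 for Eif5a, from -0.15 to -0.053 for Dhps, from 0.060 to 0.15 for Dohh and from -0.039 (without KO replicate 1, the opposite sign) to 0.097 for Eif5a2; the lone array of a genotype was assumed to vary like the other genotype. The dimmer Eif5a probe set in place of the brighter one, chosen after seeing the data, gave 0.017. Same-numbered pools did not deviate together (correlation -0.082 over 23099 probe sets), and with a replicate block the differences stayed at 0.039, 0.029, -0.10 and 0.11, with 692 named probe sets at an unadjusted p under 0.05 against 946. By the ordinary equal-variance test, and with every probe set of the table tested, 0 probe sets passed an adjusted p of 0.05 against 1, Azin2 at an unchanged -2.83; with 1 array left out this count ranged from 0 (without either WT replicate) to 2 (without KO replicate 2), and the Azin2 difference from -2.94 to -2.72. The limma count at an unadjusted p under 0.05 was 356 when dimmer probe sets were left out and 1724 with every probe set. The number of probe sets tested also differed between these settings, and its part in the counts was not tested. Of the list medians recomputed under other settings, 83 moved by less than the spread between pools and 21 by more; the cause was not tested. The nearest genes by pattern were the same 2 of 2 for each of the 4 genes by the largest absolute difference.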
